A study of Mus musculus with 17 samples.

Results

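Bone morphogenetic protein (BMP) and transforming growth factor-beta (TGF-beta) signalling was followed in differentiating mouse small intestinal organoids through 10 genes, taken by their symbols from the 26422 genes in the count tables. Id1, Id2 and Id3 stood for the targets of the pathway. Smad6, Smad7 and Bambi stood for its feedback inhibitors, and Bmpr1a, Acvr1c, Tgfbr1 and Tgfbr2 for its receptors. All 10 were listed in the tables. The rule names them by symbol and role and uses no measured value, but the choice was made with earlier results of these data known.

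BMP and TGF-beta ligands bind pairs of type I and type II serine/threonine kinase receptors at the cell surface, which phosphorylate receptor SMAD proteins that enter the nucleus together with SMAD4. BMP signalling acts mainly through SMAD1, SMAD5 and SMAD9 and switches on the Id genes, whose helix-loop-helix products hold E proteins away from DNA, while TGF-beta and activin signalling acts mainly through SMAD2 and SMAD3. In the intestine, BMP activity is low at the crypt base, where antagonists such as Noggin shield the stem cells, and high along the villus.

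The organoids were grown from crypts of C57BL/6 mice, and every medium contained EGF, Noggin and R-spondin 1 (ENR), so that all groups carried an added BMP antagonist. Organoids were first enriched for stem cells in ENR+CV, which adds CHIR99021, an activator of Wnt signalling, and valproic acid, and were then moved to ENR+CD, which adds CHIR99021 and the Notch inhibitor DAPT, with or without 160 nM KPT-330, an inhibitor of the nuclear exporter XPO1. Seq-Well S3, a nanowell method that counts transcripts of single cells by unique molecular identifiers (UMIs), gave 17 libraries: 2 at day 0 in ENR+CV, 7 controls in ENR+CD and 8 in ENR+CD with KPT-330, over days 0.25, 1, 2, 3, 4 and 6. Each library pooled many organoids, and the labels do not say what a replicate number stands for. The p-values therefore measure the spread between these libraries, which may be technical. In comparisons of treatment that spread also includes differences of the effect between days, since most groups held 1 library.

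The 19877 cells that the authors kept gave 531 to 1547 cells and 3458887 to 12433109 UMIs a library, and 14 barcodes occurred in 2 libraries. Xpo1, the target of the inhibitor, was higher with KPT-330 at all 6 days, by 1.26 log2 units on average. Summed over 12 markers of fibroblasts, muscle, endothelium, immune cells and glia, the level lay between 0.04 and 0.0812 UMIs per 10000 in the controls and between 0.0190 and 0.0678 with KPT-330, against 32.6 to 44.9 for 5 epithelial markers in both. With at most 1 of these 12 markers without a UMI in either condition, traces of their RNA were present, and their part in the results was not tested. The tables of day 0 replicate 1 and of days 0.25 and 1 listed 19823 to 21652 genes, against 15576 to 17849 in the others, so that within ENR+CD the first days and the longer tables cannot be told apart, while day 0 had 1 table of each kind. Levels below are UMIs per 10000 UMIs of a library, or of the cells of 1 type in it, and were not compared between genes. They and the daily ratios rest on library totals alone, without the scaling used in the models. The share of all genes whose levels did not overlap between conditions was not counted. A lack of overlap is therefore given only as a description.

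Over all cells, the 3 Id genes were lower with KPT-330 than in the controls, and the activin-type receptor gene Acvr1c was higher. In a model with day as a factor, Id1 fell by 1.10 on the log2 scale (SE 0.22, adjusted p = 0.0054), Id3 fell by 0.95 (SE 0.17, adjusted p = 0.0023) and Id2 fell by 0.49 (SE 0.13, adjusted p = 0.015), while Acvr1c rose by 0.93 (SE 0.09, adjusted p = 3e-05; edgeR quasi-likelihood test, 7 control and 8 KPT-330 libraries). Thus 4 of the 10 genes passed an adjusted p of 0.05, where 28.1% of all 12812 genes tested did. The 3 inhibitors and the other 3 receptors did not pass.

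**Figure D1:**
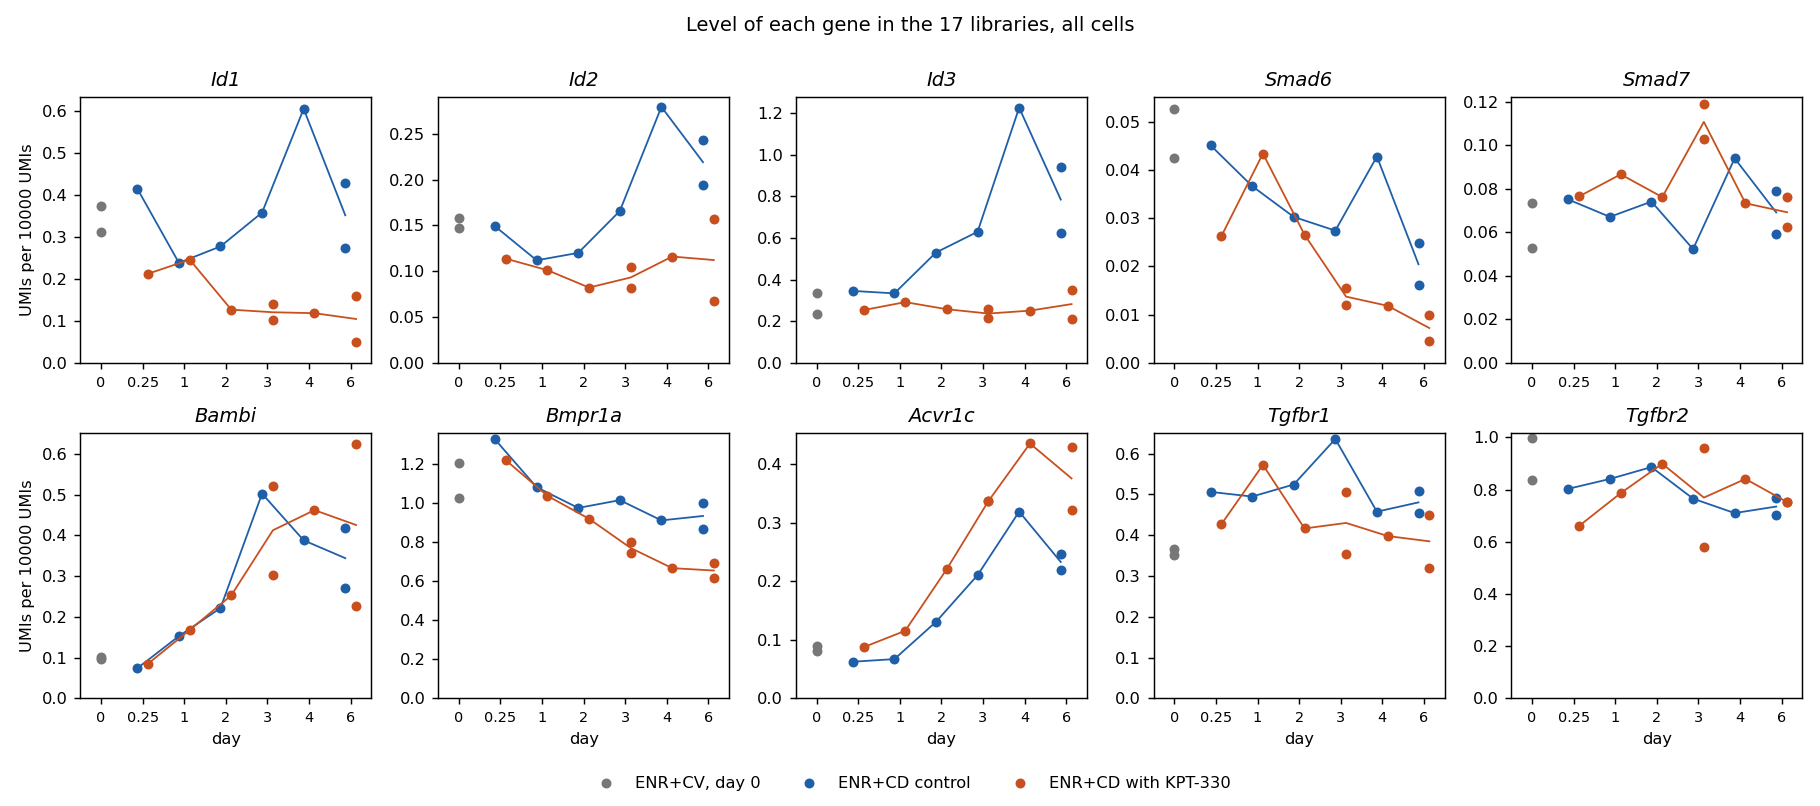
Level of each of the 10 genes (y axis, UMIs per 10000 UMIs over all cells of a library) against day of differentiation (x axis), 1 point per library, with colours for day 0 in ENR+CV, ENR+CD controls and ENR+CD with KPT-330. From day 3 on, all control points of Id1, Id2, Id3, Smad6 and Bmpr1a lie above all KPT-330 points, and those of Acvr1c lie below them. The share of all genes that separate in this way was not counted. These levels lack the scaling of the models. In an edgeR fit without it, 4897 of all 12812 genes passed as lower with KPT-330 and 450 as higher.

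Id1, a BMP target that is also expressed in stem and progenitor cells, lies on chromosome 2 (chr2:152736251-152737410, plus strand, GRCm38). Its level in the controls was 0.415 at day 0.25, 0.238 at day 1, 0.277 at day 2, 0.358 at day 3, 0.604 at day 4, and 0.274 and 0.428 in the 2 libraries of day 6. With KPT-330 it was 0.212, 0.246 and 0.127 at days 0.25, 1 and 2, 0.101 and 0.140 at day 3, 0.118 at day 4, and 0.0493 and 0.160 at day 6. From day 3 on the conditions did not overlap, and the ratio was largest at day 4. At day 1 the levels were nearly equal, and the 6 daily log2 ratios averaged -1.32 (exact permutation of their signs, two-sided, p = 0.0625). The smallest p that 6 days allow is 0.03125.

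Id3, a close relative of Id1 on chromosome 4 (chr4:136143497-136145755, plus strand), rose over time in the controls. No trend was fitted to the KPT-330 libraries, and the test of a change of the difference with time did not pass (-0.23 per doubling of time, adjusted p = 0.336, edgeR). Its control level was 0.346, 0.334 and 0.530 at days 0.25, 1 and 2, 0.630 at day 3, 1.23 at day 4, and 0.626 and 0.942 at day 6. With KPT-330 it stayed between 0.213 and 0.352 in all 8 libraries, which is close to the 0.236 and 0.335 of day 0. The conditions did not overlap in either the early days (0.25 to 2) or the late days (3 to 6), and the mean daily log2 ratio was -1.14 (lower at 6 of 6 days, exact permutation of the signs, two-sided, p = 0.03125).

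Id2, which is read from the minus strand of chromosome 12 (chr12:25093799-25097140), changed less. Control levels were 0.149, 0.112 and 0.12 at days 0.25, 1 and 2, 0.166 at day 3, 0.279 at day 4, and 0.195 and 0.244 at day 6. With KPT-330 they were 0.114, 0.101, 0.0823, 0.0822 and 0.104, 0.116, and 0.0672 and 0.157 in the same order. Conditions overlapped before day 3 and not from day 3 on, and the level was lower at 6 of 6 days by a mean of 0.70 log2 units (exact permutation of the signs, two-sided, p = 0.03125). On library totals, as used for these ratios, Bmpr1a was also lower at 6 of 6 days, with the same p. The call in the model was lost when day 3 (adjusted p = 0.0505) or day 4 (adjusted p = 0.0528) was left out.

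Stretches before RefSeq starts (GRCm38.p6) of Id2 and Id3 were read because a GC-rich SMAD element, GGCGCC, is known from Id promoters. The part of the 250 bases before the RefSeq start of Id2 that lies in no annotated exon is shown, 5′ to 3′, with the letters of GGCGCC in capitals (chr12:25096254-25096342, minus strand).
Id2: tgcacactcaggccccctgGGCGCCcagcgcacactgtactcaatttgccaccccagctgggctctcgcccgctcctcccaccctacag
This stretch lies inside the span of Id2 given above, so it is not upstream of the whole gene. The window of Id3 also lay inside its gene, wholly in exons, and is not shown. For 7 of the 10 genes the RefSeq table held such a window. Id1, Smad7 and Bambi had no entry and were not searched. GGCGCC, which reads the same on both strands, was in windows of Id2, Bmpr1a and Tgfbr1, and in 9.59% of all 32817 windows of this length. The related letters GGAGCC, searched on both strands, were in windows of Id2, Id3, Smad6, Tgfbr1 and Tgfbr2 and in 26% of all windows, and the SMAD3-type CAGACA, also searched on both strands, was in 1 window of Tgfbr1 and in 17.1% of all. The window of Bmpr1a and the CAGACA window of Tgfbr1 also lay inside the annotated genes. These are matches of letters, not sites of binding.

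Acvr1c encodes ALK7, a type I receptor that signals for Nodal and activin B. It lies on the minus strand of chromosome 2 (chr2:58267453-58357895), where the count table also lists the antisense gene Gm13544, with 9 UMIs in all. Control levels were 0.0626, 0.0671 and 0.131 at days 0.25, 1 and 2, 0.211 at day 3, 0.319 at day 4, and 0.248 and 0.219 at day 6. With KPT-330 they were 0.0875, 0.116 and 0.221, then 0.338 and 0.337, 0.436, and 0.322 and 0.430. The level rose with time in both conditions and was higher with KPT-330 at each of the 6 days, by 0.45 to 0.78 log2 units (exact permutation of the signs, two-sided, p = 0.03125), although the conditions overlapped before day 3.

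Of the inhibitors, Smad6, which blocks BMP type I receptors and SMAD1, was the scarcest gene, with 2 to 36 UMIs in an ENR+CD library. Its control range was 0.0161 to 0.0451 and its KPT-330 range 0.00448 to 0.0434, without overlap from day 3 on (difference -0.53 log2 units, SE 0.25, adjusted p = 0.117). Smad7, which blocks both branches, had a control range of 0.0524 to 0.0941 and a KPT-330 range of 0.0625 to 0.119 (difference 0.49, SE 0.18, adjusted p = 0.0595). Bambi, a receptor-like membrane protein without a kinase, had ranges of 0.0739 to 0.502 and 0.0853 to 0.625, which nearly coincided (difference 0.40, SE 0.18, adjusted p = 0.11). Smad7 passed in 3 of 20 alternatives, which were no filter on low counts (adjusted p = 0.0342), without day 0.25 (0.0482) and without day 6 KPT-330 replicate 2 (0.0383). Bambi passed without a filter (adjusted p = 0.0040), without day 3 KPT-330 replicate 1 (0.0411) and with the replicate number as a block (0.0026).

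The receptor Bmpr1a, the main BMP type I receptor of the gut epithelium, was lower per UMI with KPT-330 at all 6 days (exact permutation of the signs, two-sided, p = 0.03125). Its control levels were 0.868 to 1.32 and its KPT-330 levels 0.617 to 1.22. From day 3 on they did not overlap, at 0.868 to 1.01 against 0.617 to 0.797. After TMM scaling, which sets the bulk of the genes equal between libraries and here shifted the comparison by 0.27 log2 units, its difference was -0.04 (SE 0.08, adjusted p = 0.775), and no change relative to the other genes was called. With library totals in place of TMM, the differences of Bmpr1a (-0.31, adjusted p = 0.011) and Smad6 (-0.78, adjusted p = 0.033) passed too, but with that scaling 5347 of all 12812 genes passed, 4897 of them lower. Tgfbr1 and Tgfbr2, the type I and type II receptors for TGF-beta, differed by -0.01 (SE 0.09, adjusted p = 0.931) and 0.27 (SE 0.12, adjusted p = 0.107), and Tgfbr2 passed without day 0.25 (0.34, adjusted p = 0.0397). Their levels overlapped between conditions, at 0.454 to 0.636 against 0.320 to 0.572 for Tgfbr1 and at 0.701 to 0.886 against 0.579 to 0.960 for Tgfbr2.

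In sums over all cells, fewer cells of a type and less RNA per cell cannot be told apart, so the 10 genes were next placed among 10 cell types. Cells were clustered without these genes and without the other genes of the pathway, and clusters were named "X-like" from marker lists. By best marker score, 182 of 557 goblet-like and 279 of 525 early secretory-like cells kept their name, against 1339 of 1343 enterocyte-like cells. The stem II-like cluster had 0 of its own markers among the 10 genes most raised in it. Id3 is in the study's own list for stem I cells and Bambi in its list for enteroendocrine cells, both drawn from these libraries, so that their high levels there are not independent. In the 9 untreated libraries Id1 and Id3 had their 3 highest medians in the stem-like types, and Id2 its 2 highest in stem III-like and stem I-like cells. Id1 had a median of 0.869 in stem I-like cells (0.223 to 1.30, n = 6 libraries), 0.814 in the stem III-like type and 0.600 in the stem II-like type. Elsewhere its median was at most 0.336, down to 0.110 in Paneth-like and 0.104 in early Paneth-like cells. Id1 was higher in stem I-like than in stem III-like cells in 3 of 6 libraries that held both.

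**Figure D2:**
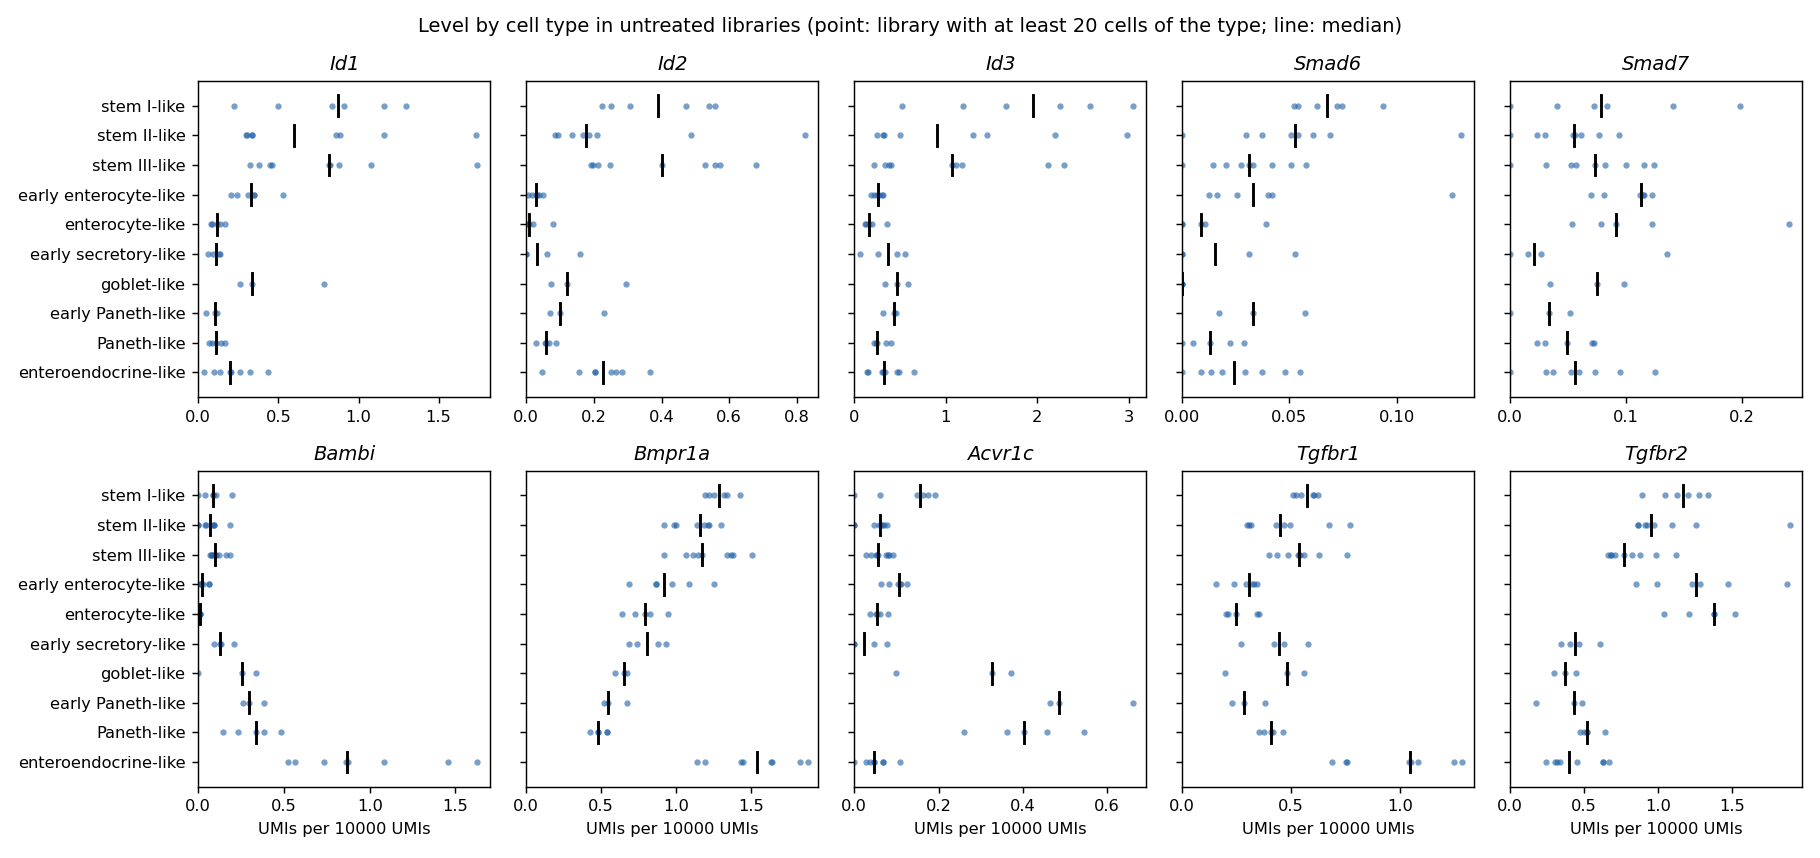
Level of each gene (UMIs per 10000 UMIs of the cells of a type, 1 panel per gene) in the 10 cell types of the untreated libraries, 1 point per library with at least 20 cells of the type and a bar at the median. Medians of Id1 and Id3 are highest in the 3 stem-like types and those of Id2 in 2 of them, while Bambi and Tgfbr1 are highest in enteroendocrine-like cells, Acvr1c in the Paneth-like types and Tgfbr2 in the enterocyte-like types.

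Id3 had a median of 1.95 in stem I-like cells (0.520 to 3.05, n = 6), 1.06 in the stem III-like type, 0.903 in the stem II-like type and at most 0.464 in the other 7 types. It was higher in stem I-like than in stem III-like cells in 6 of 6 libraries that held both. Id2 was highest in stem III-like (0.403) and stem I-like cells (0.390), whose ranges overlapped, was 0.226 in enteroendocrine-like cells and 0.177 in the stem II-like type, and was lowest in enterocyte-like cells (0.00874). The stem I-like values came from libraries of day 1 and later, since earlier ones held under 20 such cells, whereas the stem III-like values came from all 9 libraries.

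The inhibitors each had another place. Smad6 was highest in stem I-like cells (median 0.0674, 43 UMIs in 6 libraries) and had no UMI in the 3 libraries with goblet-like cells. Smad7 was highest in early enterocyte-like (0.113) and enterocyte-like cells (0.0910), with overlapping ranges throughout the order. Bambi was highest in enteroendocrine-like cells (0.867, 0.525 to 1.62, n = 8), with no overlap with the next type, Paneth-like cells (0.338, 0.145 to 0.481, n = 5), and was lowest in enterocyte-like cells (0.00874).

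Among the receptors, Bmpr1a was present in every type, from a median of 1.54 in enteroendocrine-like and 1.29 in stem I-like cells down to 0.482 in Paneth-like cells. Tgfbr1 was also highest in enteroendocrine-like cells (1.05, 0.690 to 1.29, n = 8), above the range of stem I-like cells (0.511 to 0.622, n = 6). Tgfbr2 was highest in enterocyte-like (1.38) and early enterocyte-like cells (1.26), and each of its medians in the secretory types was at most 0.516. Acvr1c was highest in early Paneth-like (0.485), Paneth-like (0.404) and goblet-like cells (0.327), and its median elsewhere was at most 0.156. The highest type was the same for 8 of the 10 genes with another way of naming cells and for 6 with a finer clustering, where neighbouring types changed places.

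KPT-330 also changed the shares of these types. In stem I-like cells Id3 was highest, and Id1 was high but not consistently above stem III-like cells. Stem I-like cells made up a median of 13.5% of the cells of a control library and 5.48% with KPT-330. Paneth-like cells, where Acvr1c was high and Id1 low, made up 20.5% and 31.3%. The part of these shares in the all-cell differences was not tested, and the comparison was therefore repeated within each type, with counts summed over the cells of the type in libraries with at least 20 of them. Of the 100 pairs of gene and type, 69 had enough counts to be tested, and Smad6 could be tested in none. In 3 of the 69 pairs the gene passed: Id1 in stem III-like cells, where 0.574% of all genes tested passed, and Id1 and Acvr1c in Paneth-like cells, where 4.28% did. Over all types together 2.03% of the tests passed, with 3.56% in stem I-like, 0.972% in stem II-like, 1.81% in early enterocyte-like, 2.56% in enterocyte-like, 0.55% in early secretory-like, 1.26% in goblet-like, 1.42% in early Paneth-like and 2.19% in enteroendocrine-like cells.

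**Figure D3:**
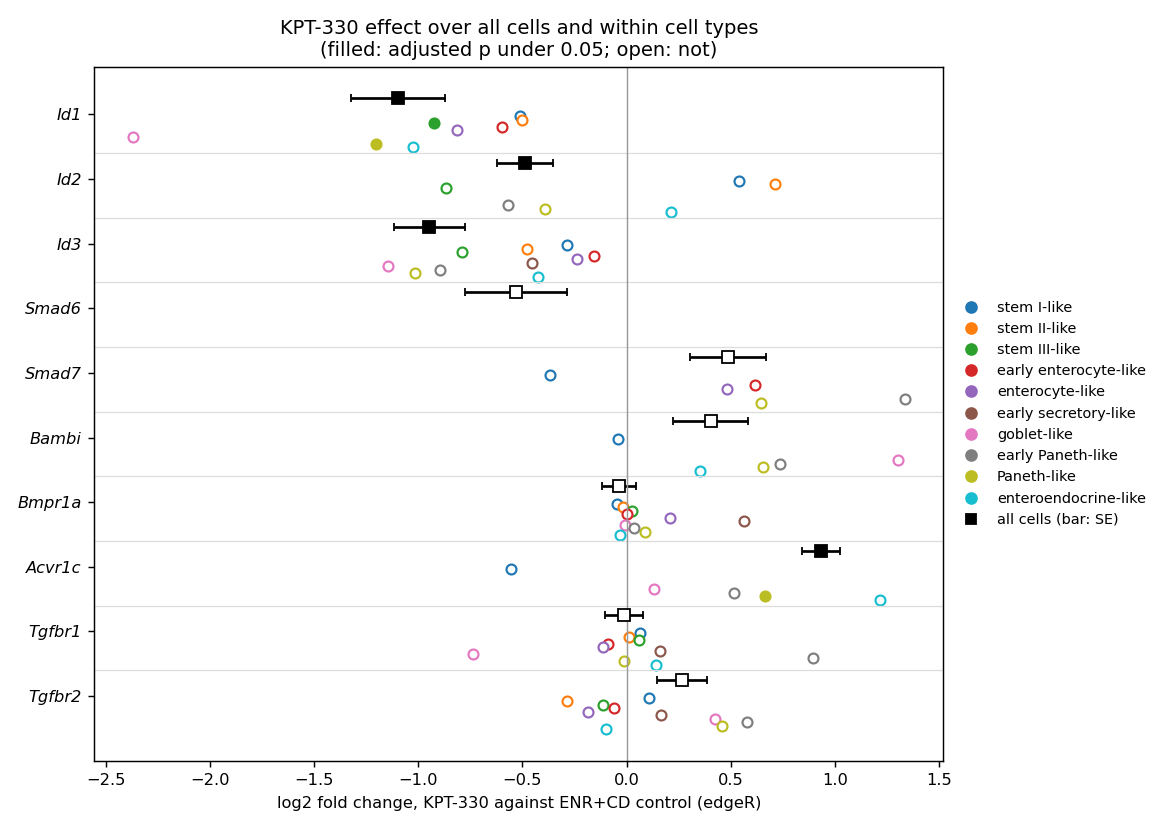
Difference between KPT-330 and control (x axis, log2, edgeR, with day as a factor) for each gene (y axis) in all cells (squares, with bars of 1 SE) and in each cell type where it was tested (circles, coloured by type). Filled symbols passed an adjusted p of 0.05. All 8 values of Id1 and all 10 of Id3 within types lie below 0.

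Id1 was lower with KPT-330 in 8 of 8 types tested (-2.37 to -0.50 log2 units) and Id3 in 10 of 10 (-1.15 to -0.16), but the types share libraries. Of these differences, 2 of Id1 and 0 of Id3 passed. In stem I-like cells, where Id3 was highest, its level was lower with KPT-330 at 2 of 4 days and higher at 2. In enterocyte-like cells the value of Id3 was 0.014 without day 3 KPT-330 replicate 1. In stem III-like cells, which carry the cell cycle markers, Id1 stood at 0.449, 0.381, 0.877 and 0.820 in the controls of days 0.25, 1, 2 and 3 and at 0.217, 0.243, 0.541 and 0.208 in the KPT-330 libraries of the same days. It was lower at 4 of 4 days, and the fitted difference was -0.92 (SE 0.22, adjusted p = 0.036, 7 control and 4 KPT-330 libraries). The call rested on day 3 KPT-330 replicate 1, which held 24 such cells, since the adjusted p was 0.0719 without it, and DESeq2 gave an adjusted p of 0.398.

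In Paneth-like cells, Id1 lay between 0.0696 and 0.167 in 5 control libraries and between 0.0296 and 0.0611 in 6 KPT-330 libraries, with no overlap (-1.20, SE 0.27, adjusted p = 0.014). Without day 6 control replicate 1 the difference was -1.09 (adjusted p = 0.054), and it did not pass either when cells took their best marker score (-0.95, adjusted p = 0.285) or with a finer clustering (-0.85, adjusted p = 0.245). Id3 in the same cells lay between 0.219 and 0.406 in the controls and between 0.0555 and 0.185 with KPT-330, also with no overlap, and its difference of -1.02 (SE 0.34) did not pass with edgeR (adjusted p = 0.147). It passed in 5 of 15 alternatives, which were DESeq2 (adjusted p = 0.0195), no filter on low counts (1.08e-05), library totals without TMM (0.0438), the replicate number as a block (0.0054) and without day 6 KPT-330 replicate 1 (-1.43, adjusted p = 0.0014).

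Acvr1c in Paneth-like cells was 0.261, 0.458 and 0.545 in the controls of days 2, 3 and 4 and 0.404 and 0.363 at day 6, and with KPT-330 it was 0.753 at day 2, 0.614 and 0.703 at day 3, 0.671 at day 4, and 0.426 and 0.584 at day 6. It was higher at 4 of 4 days (0.67, SE 0.13, adjusted p = 0.0058), with the largest gap at day 2. Paneth-like cells fell into 2 clusters that the conditions filled differently, with 957 control and 1801 KPT-330 cells in the one and 1239 and 988 in the other. Within each cluster alone, Acvr1c still passed (0.53, adjusted p = 0.049, and 0.64, adjusted p = 0.037), whereas Id1 did not (-0.93, adjusted p = 0.32, and -1.20, adjusted p = 0.30).

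**Figure D4:**
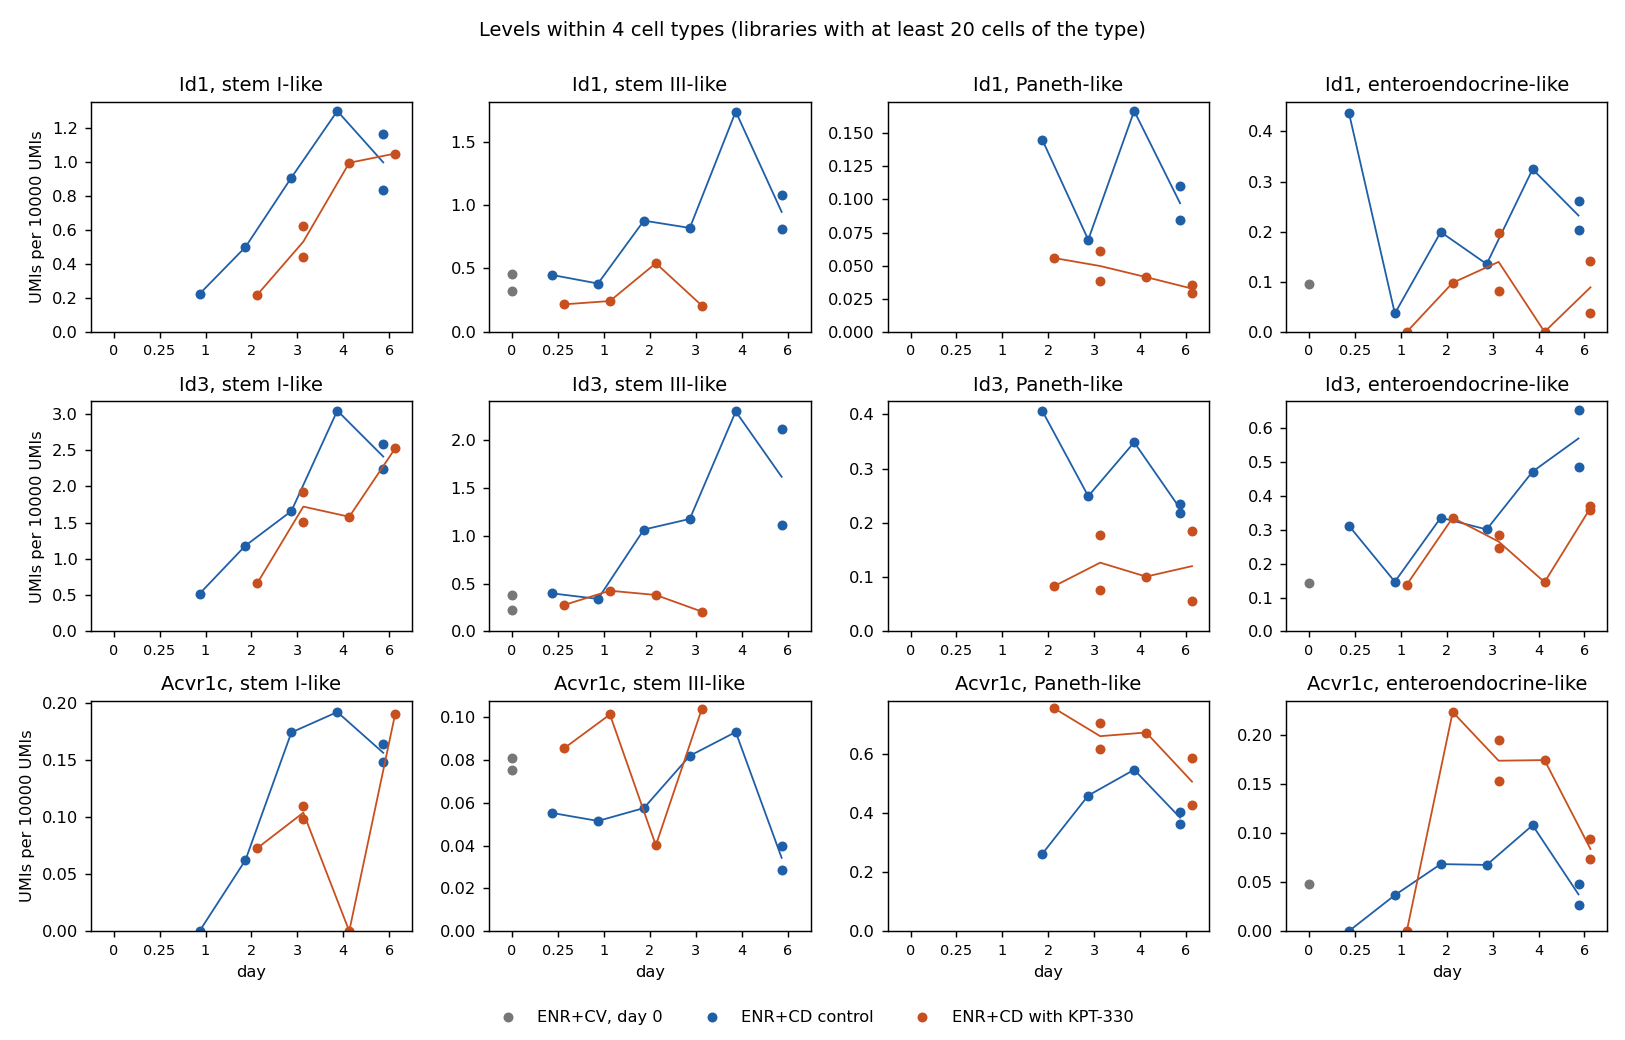
Level (UMIs per 10000 UMIs of the cells of the type) against day for Id1, Id3 and Acvr1c (rows of panels) in stem I-like, stem III-like, Paneth-like and enteroendocrine-like cells (columns), 1 point per library with at least 20 cells of the type and lines through the daily means. In Paneth-like cells the control points of Id1 and Id3 lie above all KPT-330 points.

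Bambi was higher in 4 of 5 types tested, among them goblet-like cells, where 3 control libraries had 0.258, 0.336 and 0 and 4 KPT-330 libraries 0.381 to 0.853 (1.30, SE 0.39, adjusted p = 0.11). Without day 3 KPT-330 replicate 1, this difference (1.46, adjusted p = 0.020), that in early Paneth-like cells (0.93, adjusted p = 0.018) and that in enteroendocrine-like cells (0.50, adjusted p = 0.036) passed, and the number of pairs that passed was 8 in place of 3. Calls over all genes were also more numerous without that library, with 786 in place of 428 in Paneth-like, 342 in place of 119 in early Paneth-like, 128 in place of 73 in goblet-like and 327 in place of 227 in enteroendocrine-like cells. Enteroendocrine-like cells fell into 2 clusters, with 869 control and 344 KPT-330 cells in the one and 650 and 511 in the other. The first had Neurog3 and Neurod2 among its most raised genes, and the other Cck and Ghrl. In differences over both clusters together, their mix and the RNA per cell cannot be told apart. Among the other genes no pair passed in the full fits. Id2 was lower in stem III-like (-0.87), early Paneth-like (-0.57) and Paneth-like cells (-0.39). It was higher in stem I-like (0.54), stem II-like (0.71) and enteroendocrine-like cells (0.21), unlike its fall over all cells. In stem I-like cells its level was higher at 4 of 4 days, and in stem II-like cells at 3 of 3. Smad7 was higher in 4 of 5 types (-0.37 to 1.34). Bmpr1a ranged from -0.05 to 0.56, Tgfbr1 from -0.74 to 0.89 and Tgfbr2 from -0.29 to 0.58 over 10 types each. With the replicate number of the labels as a block 11 pairs passed, the additional ones including Id3 and Bambi in Paneth-like (adjusted p = 0.0054 and 0.0021), early Paneth-like (0.0018 and 0.017) and goblet-like cells (0.017 and 0.0060). Calls over all genes also increased with the block, from 428 to 927 in Paneth-like, from 119 to 339 in early Paneth-like and from 73 to 164 in goblet-like cells.

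Stem II-like and III-like cells of days 0.25, 1 and 2 were also pooled, as the study singled out these cells at these days. In them (3 control and 3 KPT-330 libraries), Id1 fell by 0.67 on the log2 scale (SE 0.18, adjusted p = 0.040) and was the only one of 9 genes tested to pass, where 2.26% of all genes did. Id3 differed by -0.56 (SE 0.21, adjusted p = 0.207) and Id2 by -0.16 (SE 0.23, adjusted p = 0.823), and the receptors Bmpr1a, Tgfbr1 and Tgfbr2 by -0.02, 0.02 and -0.15. The call of Id1 was lost without day 0.25 (adjusted p = 0.37), day 1 (0.11) or day 2 (0.13), and with DESeq2 none of the 9 passed. No group had a repeated library in this fit, so its p-values measure how far the effect differed between days.

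Whether the effect of KPT-330 changed with time was tested as an interaction with log2 of day over all cells. None of the 10 genes passed (edgeR, 0.195% of all genes did), and 2 had an unadjusted p under 0.05: Id3, whose difference moved by -0.23 per doubling of time (SE 0.10, adjusted p = 0.34), and Tgfbr2, by 0.18 (SE 0.06, adjusted p = 0.25). DESeq2 also called none.

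In the control libraries alone, 4 of the 10 genes changed with time in ENR+CD, where 42.8% of all genes did. Per doubling of time, Acvr1c rose by 0.50 (SE 0.09, adjusted p = 0.0016), Bambi rose by 0.53 (SE 0.10, adjusted p = 0.0034), Id3 rose by 0.33 (SE 0.09, adjusted p = 0.016) and Bmpr1a fell by 0.11 (SE 0.04, adjusted p = 0.032). Bambi stood at 0.0739 at day 0.25, 0.153 at day 1, 0.222 at day 2, 0.502 at day 3, 0.388 at day 4, and 0.271 and 0.417 at day 6, so that its highest level was at day 3. Id1 and Id2 did not pass (0.02, adjusted p = 0.86, and 0.17, adjusted p = 0.11), nor did Smad6, Smad7, Tgfbr1 and Tgfbr2 (-0.21 to -0.01). Without day 6 control replicate 2, Bmpr1a did not pass (adjusted p = 0.084), and over days 2 to 6 alone, whose tables list fewer genes, none did (Id3 0.41, adjusted p = 0.48). Controls of days 0.25 and 1 carried replicate number 1, and those of days 2, 3 and 4 number 2. Only day 6 had both, so time and replicate number largely cannot be told apart in this trend.

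Against day 0 in ENR+CV, the controls of days 3 to 6 had more Bambi (2.06, SE 0.40, adjusted p = 0.0053), Id3 (1.65, SE 0.31, adjusted p = 0.0048), Acvr1c (1.62, SE 0.34, adjusted p = 0.0063) and Tgfbr1 (0.58, SE 0.16, adjusted p = 0.019), where 39.4% of all genes passed. Bambi was 0.0970 and 0.10 at day 0 and at least 0.271 in the 4 late controls, and Tgfbr1 was 0.353 and 0.367 against at least 0.454. Id1 (0.34, adjusted p = 0.38), Id2 (0.60, adjusted p = 0.079) and the other 4 genes did not pass. Medium and time changed together here and cannot be told apart, and without day 0 replicate 2 only Id3 passed (adjusted p = 0.037), with adjusted p of 0.055 for Bambi, 0.063 for Acvr1c and 0.14 for Tgfbr1. Without day 0 replicate 1 (0.084) or day 6 control replicate 2 (0.055) Tgfbr1 did not pass either.

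The rest of the pathway was read from a list of 69 further genes, of which 50 had enough counts in the all-cell comparison of KPT-330 and control. Of these, 9 were higher and 7 lower with KPT-330, where 28.1% of all genes tested passed in either direction. The median difference was 0.04 log2 units, against -0.002 over all genes tested. By role, 3 of 12 ligands were higher and 1 lower, 1 of 8 receptors was lower, 2 of 12 inhibitors were higher and 3 lower, and 4 of 11 targets were higher and 2 lower, while none of the 7 signal transducers passed (edgeR), of which 1, Smad5, had an unadjusted p under 0.05, and DESeq2 called 0.

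**Figure D5:**
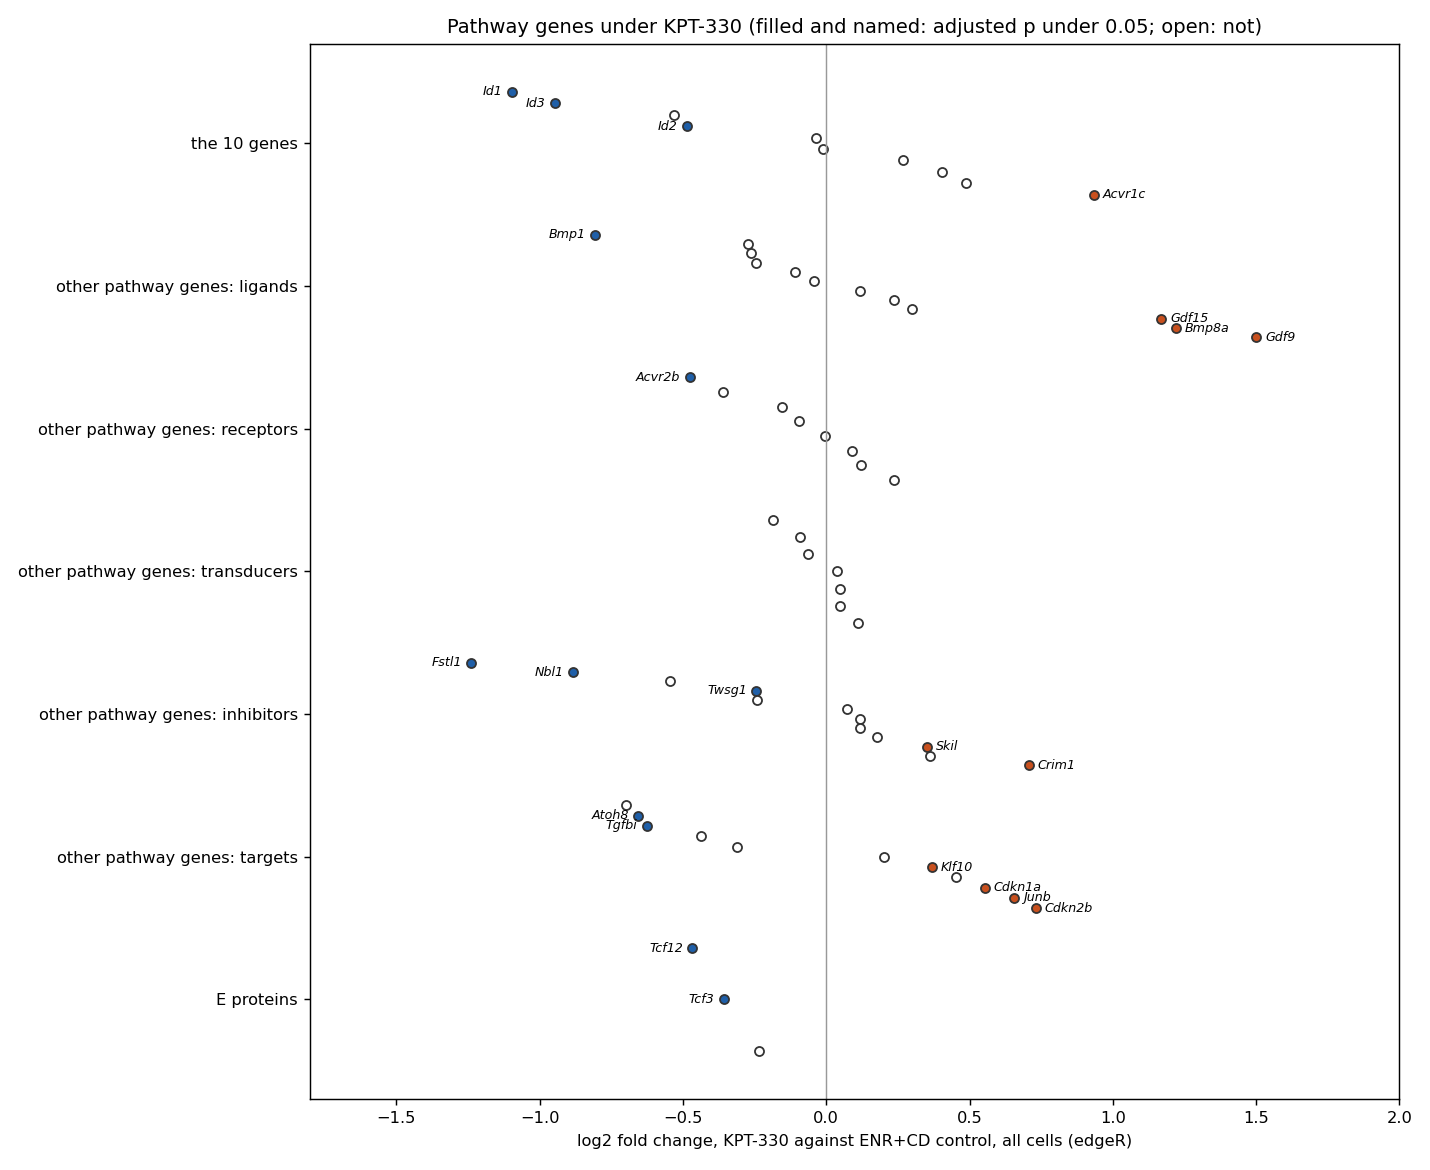
Difference between KPT-330 and control over all cells (x axis, log2, edgeR) for the 10 genes, the 50 tested genes of the pathway list by role, and the E proteins (y axis), 1 point per gene. Filled points carry names and passed an adjusted p of 0.05. Targets lie on both sides of 0.

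Of the ligands, Gdf15, a stress-induced relative of the BMPs, rose by 1.17 (adjusted p = 0.00068), as did the scarce Gdf9 (1.5, adjusted p = 0.0054) and Bmp8a (1.22, adjusted p = 0.034), and Bmp1, which despite its name is a protease that frees ligands from Chordin, fell by 0.81 (adjusted p = 0.0011). Bmp7 and Gdf11, the most abundant ligands, differed by -0.04 and -0.27 and did not pass. The type II activin receptor Acvr2b fell by 0.48 (adjusted p = 0.022), while Neo1 and Rgmb differed by -0.09 and -0.36. The transducers Smad1 and Smad4 differed by 0.11 and -0.06.

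The inhibitors Crim1 (0.71, adjusted p = 0.0035), which binds BMPs at the cell surface, and Skil (0.35, adjusted p = 0.0083), a nuclear repressor of SMADs, rose, and Fstl1, a secreted relative of follistatin, fell by 1.24 (adjusted p = 0.018). Among the targets Atoh8, a BMP target like the Id genes, fell by 0.66 (adjusted p = 0.0029), whereas Cdkn1a (0.55, adjusted p = 0.0026) and Cdkn2b (0.73, adjusted p = 0.021), which encode inhibitors of cyclin-dependent kinases, and Junb (0.65, adjusted p = 0.0032) rose. Cdkn1a and Junb also answer to p53 and to growth factor or stress signals. In Paneth-like cells, Atoh8 fell by 0.88 (adjusted p = 0.0075) and Gdf15 rose by 1.51 (adjusted p = 0.00015). These were the 2 of 38 genes of the list that passed there with edgeR, where 4.28% of all genes tested did. DESeq2 called 3, with Junb (0.55, adjusted p = 0.019) added.

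Over time in the controls, 16 of 48 genes of the list rose and 3 fell, and 15 of 48 were higher and 2 lower in the late controls than at day 0, where 42.8% and 39.4% of all genes passed, so that neither count exceeded the share over all genes. Atoh8 rose by 0.42 per doubling of time (adjusted p = 0.0040) and was 3.79 log2 units higher late than at day 0 (adjusted p = 0.0039), Msx1 by 0.50 (adjusted p = 0.00089) and 1.54 (adjusted p = 0.0070). No gene of the list passed in the early stem II-like and III-like cells (edgeR, 37 tested), where 4 had an unadjusted p under 0.05 and DESeq2 called 0. In the interaction with time none of 50 passed with edgeR, 9 had an unadjusted p under 0.05, and DESeq2 called 1, Cyr61, which was named after its value was seen.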

How the data were processed

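Per the labels and the study's methods, the authors demultiplexed reads with bcl2fastq, aligned them to mm10 with STAR and the Drop-seq pipeline, and deposited a table of UMI counts per gene and cell barcode for each library (26229 barcodes in 17 libraries). A merged table names the 19877 cells that they kept after filters on genes, UMIs, mitochondrial share and doublets. These counts were used as deposited.

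Counts of the kept cells were summed per library, or per library and cell type, and tested with edgeR 4.0.16 (TMM, filterByExpr with a minimum count of 10, robust quasi-likelihood fit, Benjamini-Hochberg over all genes of a fit, threshold 0.05) in R 4.3.3. The fits were tested on simulated data. Day was a factor in comparisons of treatment, trends used log2 of day, and day 0 was compared as a stage. The daily log2 ratios added 0.5 counts and used library totals without TMM. For cell types, SCTransform (Seurat 5.3.0, sctransform 0.4.2) and Louvain clustering (resolution 0.45, 9 principal components, 2967 of 3000 variable genes after removal of 33 list genes, and a second tier at resolution 0.3) gave 16 clusters, named from 10 markers a type; 486 cells stayed unnamed. Libraries with under 20 cells of a type were left out of that type, and types needed both conditions at 3 days. The 10 genes and all lists were chosen with earlier results of these data known. All 10 genes are named in every comparison. Of the pathway list, those called (at most 12 by p) and the 2 most abundant of each role were eligible. Alternatives were DESeq2 1.42.0, other size factors, no filter on low counts, left-out libraries and days, a replicate block, other cell labels and other time scales; library totals without TMM, days 2 to 6 alone and single clusters were chosen after seeing the data. Gene positions came from GENCODE (GRCm38) and windows before annotated starts from RefSeq. A UMI count is a sample of a cell's transcripts, so the scarcer genes carry more counting error.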

Additional observations from a re-analysis of the deposited data

How the results depend on the processing

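Over all cells, the count of 4 genes that passed with KPT-330 ranged from 3 to 6 over 20 alternatives. Other counts moved more. Within types the 3 pairs became 9 without a filter on low counts, 5 when each cell took its best marker score, 11 with the replicate block, and 2 to 8 with 1 library left out. In early stem II and III cells the 1 call became 2 without a filter and 0 with DESeq2, with marker scores, or without day 0.25, 1 or 2. The interaction with time had 1 call (Id3) without a filter. The trend in the controls gave 2 calls on a linear scale of days and 0 over days 2 to 6 alone (chosen after seeing the data), and 1 to 4 genes differed from day 0 with 1 library left out. With a finer clustering (resolution 0.8), 6 of 10 genes had the same highest type. The causes of these shifts were not tested, beyond the fewer libraries or the larger number of genes in the fits concerned.

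In the replicate block fit over all cells 5 genes passed, Bambi added (0.46, adjusted p = 0.0026), and in the interaction none. Same-numbered libraries of day 6, the only day with 2 libraries in each condition, deviated together (correlation 0.60 over 8847 genes), but 1 pair of groups does not show that the numbers pair samples.

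Values with the other sign, none with a call in either fit, were as follows. With KPT-330 over all cells, Bmpr1a ranged from -0.088 to 0.015 and Tgfbr1 from -0.035 to 0.032 with 1 library left out. Tgfbr1 was 0.0063 with the replicate block, 0.0091 without day 0.25 and 0.044 without day 3, and Tgfbr2 was -0.0050 with library totals without TMM and -0.019 as a mean daily ratio. In stem I-like cells Bambi ranged from -0.17 to 0.047 with 1 library left out and was 0.57 with marker scores, which gave 0.33 for Acvr1c. In enterocyte-like cells Id3 ranged from -0.37 to 0.014 with 1 library left out and was 0.057 with the replicate block, which gave -0.0028 for Acvr1c in goblet-like cells. In early stem II and III cells Bmpr1a was 0.013 without day 0.25 and 0.038 with marker scores, and Tgfbr1 was -0.017 with library totals and -0.11 without day 1. In the interaction Bambi ranged from -0.011 to 0.18 and Bmpr1a from -0.034 to 0.034 with 1 library left out, and Tgfbr1 was -0.054 with library totals. In the trend Smad7 ranged from -0.034 to 0.013 and Tgfbr1 from -0.016 to 0.0028 with 1 library left out, and Smad7 was 0.0021 on a linear scale and 0.046 over days 2 to 6. Against day 0, Smad7 ranged from -0.10 to 0.56 and Bmpr1a from -0.38 to 0.035 with 1 library left out. Bmpr1a, Tgfbr1 and Tgfbr2 within types, given above by their ranges, changed sign in 46 of 395 alternatives, none with a call.

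Depth limited the scarce genes most. Smad6 had 2 to 36 UMIs in an ENR+CD library and passed the filter on low counts in no cell type. The filter left 69 of the 100 pairs of gene and type to be tested, and the main fits give no difference for the others.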

Other observations

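Across 57 combinations of untreated library and cell type, which share libraries and clusters, the genes whose levels followed those of the 10 genes most closely were listed among 9346 genes by Pearson's r of log2 levels, as a description. Id1 was nearest to Id3 (0.83), followed by Tfdp2 (0.78) and Ascl2 (0.78). For Id3 the nearest were Ascl2 (0.87), a Wnt-driven transcription factor of intestinal stem cells, Slc14a1 (0.86) and Lamb2 (0.85). Id2 was nearest to Cachd1 (0.88), Cic (0.84) and Sema5a (0.84).

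Bambi was nearest to E330009J07Rik (0.88), Syt7 (0.88), which encodes a synaptotagmin of secretory vesicles, and D630036G22Rik (0.88). Acvr1c was nearest to the Wnt receptor gene Fzd9 (0.84), the defensin-like AY761184 (0.82) and the lysozyme gene Lyz2 (0.82). Tgfbr2 was nearest to Prlr (0.84), Slc4a4 (0.83) and Oat (0.82), Bmpr1a to Slc25a4 (0.84), Ube2e3 (0.82) and Akap11 (0.82), and Tgfbr1 to Phip, Zc3h12c and Cbfa2t2 (0.83, 0.83 and 0.82). Smad6 and Smad7 were too scarce for this list, with mean levels of 0.0335 and 0.0693 UMIs per 10000.

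Of 3 genes of E proteins, which Id proteins bind, 2 passed as lower with KPT-330, where 28.1% of all genes passed in either direction. Over all cells, Tcf12 fell by 0.47 on the log2 scale (SE 0.09, adjusted p = 0.0021, edgeR) and Tcf3 fell by 0.36 (SE 0.08, adjusted p = 0.0069), while Tcf4 differed by -0.23 (SE 0.09, adjusted p = 0.053). Within types, Tcf12 fell in stem I-like (by 0.43, adjusted p = 0.036) and early Paneth-like cells (by 0.72, adjusted p = 0.025, edgeR). There 3.56% and 1.42% of all genes tested passed. The value of Tcf12 lay below 0 in each of the 10 types, but the types share libraries. In the controls Tcf4 rose by 0.32 per doubling of time (SE 0.06, adjusted p = 0.0015) and Tcf12 rose by 0.13 (SE 0.04, adjusted p = 0.031, edgeR). Of all genes tested for this trend, 42.8% passed.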
